A study of Sus scrofa with 2 samples.

Results

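The cells described here are those of pig endometrium that carried RNA of vascular endothelial genes, the genes of the cells that line blood vessels. A barcode with at least 500 unique molecular identifiers (UMIs, each standing for 1 captured transcript) and 300 genes was picked when its UMIs of 10 such genes summed to 4 or more. These had to come from at least 2 of the genes, and the barcode could hold no UMI of SNTN, a gene of ciliated cells. The rule picked 541 of 19466 kept barcodes, 498 in one library and 43 in the other. The rule used measured values, so the high levels of its own genes are a description and support nothing.

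Both libraries came from endometrium of 3-year-old Yorkshire sows, 1 sow and 1 library each, measured with 10x droplet chemistry that reads the 3′ end of transcripts. The implantation sow (EIS) was sampled 30 days after insemination. The embryo loss sow (EL) had aborted before and had failed to conceive at 3 inseminations in a row; her stage at sampling is not stated in the labels. The cells were freed from about 200 mg of tissue by enzymes, filtered and cleared of red cells, steps that can set which cells were recovered. Sow, pregnancy, stage and library cannot be told apart, no p-value can be given, and every interval below is a 95% interval of counting error only. Of the 10936 EL and 8848 EIS barcodes, 10797 and 8669 were kept, from libraries of 43302286 and 36069473 UMIs. The libraries shared 27 kept barcode sequences, none of them among the picked cells.

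Endothelial cells form the wall of every vessel, hold their neighbours by VE-cadherin (CDH5) and claudin-5 (CLDN5), and take growth signals from VEGF through KDR and FLT1. Arteries, capillaries, veins and lymphatics differ in the genes they use: gap junction proteins and Notch ligands in arteries, the receptor ACKR1 and P-selectin (SELP) in veins, and the transcription factor PROX1 in lymphatics, which drain fluid and immune cells. In the pig the placenta does not invade the uterine wall, so the maternal vessels under the uterine lining grow and widen to feed the conceptus across an intact epithelium.

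In EIS, 498 of 8669 kept cells were picked (5.75%, exact Clopper-Pearson interval 5.26 to 6.26). In EL, 43 of 10797 were picked (0.398%, 0.288 to 0.536). The EIS share was 14.4 times the EL share (10.6 to 20.2). The picked EIS cells were deeper than the rest of their library, with a median of 5371 UMIs against 2143, and the picked EL cells had a median of 3599; deeper cells reach a fixed UMI sum more easily, and the part of depth in the shares was not tested. The median sum over the rule genes was 8 in both libraries, and the highest was 264 in EIS and 72 in EL. At the edge of the rule, 91 EIS and 8 EL cells had a sum of exactly 4, while 175 EIS and 15 EL cells were left out with a sum of 3. SNTN removed 52 EIS and 5 EL cells that otherwise passed.

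Of the 10 rule genes, 9 were listed in the files, and CLEC14A was found under no symbol. PECAM1, an adhesion molecule at endothelial contacts, stood at 830.5 CPM (the UMIs of a gene scaled to a common total per set of cells, the usual counts-per-million unit; interval 799 to 862) in the picked EIS cells and 592 CPM (495 to 702) in the picked EL cells. In the other cells PECAM1 was at 26.5 CPM in EIS and 9.20 CPM in EL. CDH5 stood at 244 CPM in picked EIS cells and 122 CPM (80.4 to 177) in picked EL cells, and PLVAP, the protein of the diaphragms that span endothelial pores, at 672 and 212 CPM (156 to 282). EGFL7, a factor secreted by endothelium, was near the same level in both, 843 CPM in EIS and 885 CPM (766 to 1018) in EL, and CLDN5 was higher in EL, at 335 CPM in EIS and 781 CPM (669 to 907) in EL. The growth factor receptors KDR (161 and 99.4 CPM) and FLT1 (77.9 and 22.6 CPM) had EL values that rested on 22 and 5 UMIs. VWF, the platelet-binding protein that usually marks endothelium, was at 0 UMIs in all 541 picked cells, with 1 UMI in the other EIS cells and 0 in the other EL cells, so this gene took no part in picking cells.

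**Figure D1:**
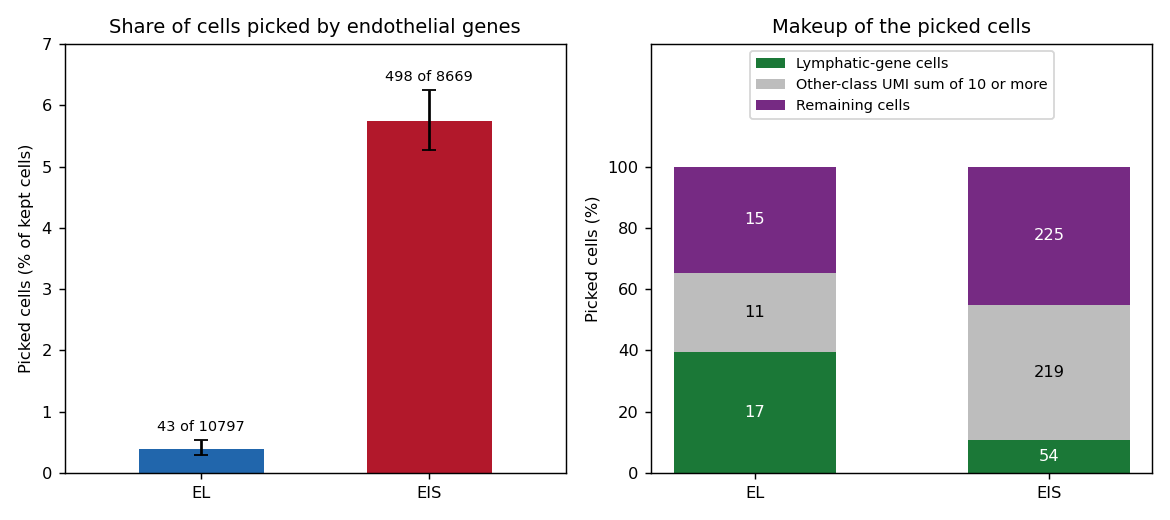
Left, picked cells as a percent of kept cells in each library, with exact Clopper-Pearson 95% intervals; right, the picked cells of each library divided into lymphatic-gene cells, cells with a UMI sum of 10 or more over the epithelial, stromal, mural or macrophage list, and the rest, with cell numbers in the bars. The picked share was 0.398% in EL and 5.75% in EIS, and lymphatic-gene cells were 17 of 43 in EL and 54 of 498 in EIS.

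**Figure D2:**
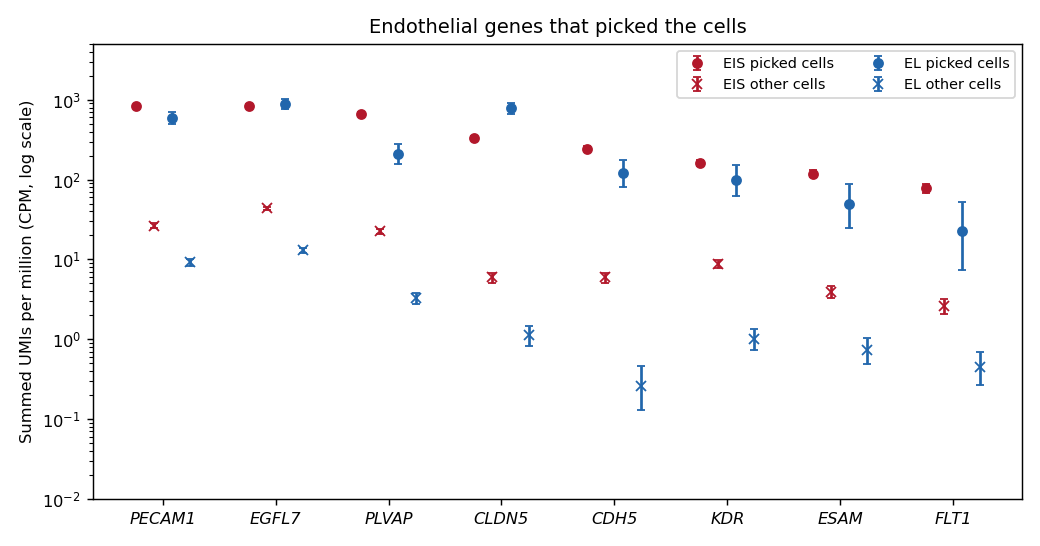
Level of 8 of the genes that picked the cells, in CPM on a log scale, in the picked cells (circles) and the other kept cells (crosses) of each library, with exact Poisson 95% intervals. The genes are high in picked cells by construction; CLDN5 was the gene with the clearest higher level in EL picked cells, 781 against 335 CPM.

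Endothelial genes that the rule did not use stood high in the same cells. Of 15 such genes with a row among 30 on a general endothelial list, 14 had enough UMIs to compare in EIS and 13 were at least 2-fold higher in picked than in other EIS cells. The background was 2087 of 15448 genes, or 13.5%, at least 2-fold higher and 12.7% at least 2-fold lower; with the 95% interval of the ratio also outside 1 these shares were 12.5% and 7.57%. TMM scaling, which shifts the log2 ratios by 0.30, turned the counts of 2087 higher and 1967 lower into 1390 and 2652. Since the rule used this contrast, nothing is read from the counts. The transcription factor SOX18 was at 668 CPM in the picked cells against 18.96 CPM in the other EIS cells, a ratio of 35.2 (32.2 to 38.6). The adrenomedullin receptor pair CALCRL and RAMP2, which regulates vessel growth and leak, was at 296 and 1463 CPM against 14.7 and 76.4 CPM. The angiopoietin receptors TIE1 and TEK were at 112 and 94.5 CPM against 11.1 and 7.96 CPM. In picked EL cells SOX18 was at 447 CPM (363 to 544), RAMP2 at 1201 CPM (1061 to 1355) and TIE1 at 113 CPM (73.1 to 167).

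With each cell thinned to 1000 UMIs, so that cells of different depth could be compared, RAMP2 was seen in 53.4% of picked EIS cells (48.8 to 58.0) and SOX18 in 34.3% (30.0 to 38.8). Without thinning the shares were 82.7% and 57.8%, and 26 shallower picked EIS cells were left out of the thinned values. In EIS ciliated cells the thinned shares were 6.95% for RAMP2 and 1.34% for SOX18, at a median depth of 6909 UMIs. Without thinning they were 44.0% and 5.04%, so RAMP2 RNA was not absent from ciliated cells. Whether it was their own or free RNA was not tested. In thinned picked EL cells the shares were 58.3% (40.8 to 74.5) for RAMP2 and 38.9% (23.1 to 56.5) for SOX18, with 7 of the 43 cells left out as too shallow; unthinned they were 74.4% and 48.8%. EL ciliated cells, at a median of 6193 UMIs, had thinned shares of 5.71% and 0.0792%, and unthinned shares of 29.45% and 0.234%.

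The genes with the largest ratios in the picked EIS cells, outside the rule genes, were led by SPARCL1, a secreted matrix protein, at 113 against 2.91 CPM (ratio 38.9, 30.9 to 49.2), with UMIs in 16.5% of the picked cells. ADGRL4, an adhesion receptor of endothelium, followed SOX18 with a ratio of 31.8, and SELP with 31.2. AQP1, the water channel of vessel walls, had a ratio of 30.9 and stood at 651 against 21.1 CPM. CAVIN2, a coat protein of the membrane pits called caveolae, had a ratio of 28.7, and the plasminogen-binding protein CLEC3B one of 28.6. JAM2, an adhesion molecule of endothelial contacts, had a ratio of 27.8, and MMRN1, of platelets and endothelium, one of 26.4. APOA1, the main protein of high-density lipoprotein, stood at 1579 CPM against 69.3 (ratio 22.8), and IL33, an alarm cytokine kept in the nuclei of vessel cells, at 282 against 12.6 CPM (22.5). PLAT, the plasminogen activator of endothelium, was at 484 against 29.9 CPM (16.2). The smallest ratios belonged to ODF3B at 0.156 and DYNLRB2 at 0.177, both genes of cilia, and the loss of ciliated cells follows from the SNTN step.

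Over all genes, 13.5% were at least 2-fold higher and 12.7% at least 2-fold lower in picked EIS cells, and the counts that follow are a description. Among pathways of the vessel wall, all 10 measured genes for binding leukocytes were at least 2-fold higher in picked EIS cells (median log2 ratio 2.50, beside 0.21 over all genes). Leaving out the rule genes that belong to these lists, so were 7 of 11 junction genes, 5 of 6 caveolar and permeability genes and 3 of 6 VEGF ligands and receptors, with 1 of the last lower. So were 10 of 14 genes of the BMP pathway, which acts with blood flow on vessels through ALK1. Of the Notch pathway, which sets arterial fate, 3 of 9 were higher, and of 14 immediate-early stress genes, which tissue digestion can raise, none was 2-fold higher or lower. Of 14 cell cycle genes 10 were higher. RNA of other cells moved as well: 5 of 6 macrophage genes were higher, their sum at 1891 against 582 CPM, while all 5 measured ciliated genes and 4 of 7 stromal genes were lower. The part of those cells in the pathway counts was not tested.

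The picked EIS cells were not of 1 kind. Leiden clustering divided them into 8 sub-clusters of 17 to 118 cells, whose leading genes are a description and no test. Only clusters 0 and 4 were given a subtype, as venous-like and lymphatic-like. Both had most measured genes of that list at least 2-fold higher at 50 CPM or more, and 2 or more among their 10 leading genes. Cluster 3 had 2 arterial genes among its 10, but only 3 of 8 were higher. Cluster 6 had at most 1 gene of any subtype list among its 10. The other clusters are given by number and leading genes. The label's own markers picked the cells, so the label was checked on the general endothelial list outside the rule. That list summed to 9130 CPM in cluster 0, 8264 CPM in cluster 6 and 7330 CPM in cluster 4, each above the other picked cells. In cluster 3 it summed to 3762 CPM against 3989 CPM in the other picked cells, and none of its genes was 2-fold higher at 50 CPM or more. Clusters 2, 5 and 7, together with much of cluster 1, were led by genes of other cells.

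Cluster 0, of 118 cells, was venous-like: 6 of 8 venous genes with 20 or more UMIs were at least 2-fold higher than in the other picked cells and at 50 CPM or more, where 7.66% of all 10479 such genes were. ACKR1, which binds chemokines on the walls of venules, stood at 2063 CPM (1957 to 2173) and was seen in 89.8% of its cells. SELP, with which leukocytes first make contact, stood at 455 CPM, and the venous transcription factor NR2F2 at 634 CPM. The cluster had EDN1, the constrictor endothelin-1, at 706 CPM, NOS3, the enzyme that makes nitric oxide, at 209 CPM, and the prostaglandin transporter SLCO2A1 at 1512 CPM. IGFBP7, a secreted binding protein of the vessel wall, reached 6297 CPM. APOA1 reached 5038 CPM and IL33 reached 1000 CPM here, so both genes stood highest of all 8 clusters in the venous-like cells.

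Cluster 6, of 22 cells, had the highest sum of rule genes, 15440 CPM. PLVAP stood at 5330 CPM (4986 to 5692) and was seen in all 22 cells, against 882 CPM in cluster 0. GPIHBP1, which holds lipoprotein lipase on capillary walls, was at 388 CPM and was listed at 0 in clusters 0, 4, 5 and 7. APLNR, the apelin receptor, was at 1028 CPM, the basement membrane collagen COL4A2 at 4804 CPM, and FABP5, a fatty acid carrier, at 5772 CPM. SPARCL1 was at 1470 CPM here against 132 CPM in cluster 0. By the same measure 4 of 6 capillary, 6 of 7 tip cell and 5 of 8 arterial genes were higher here, where 10.7% of all genes were, so no single subtype was given.

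Cluster 3, of 64 cells, was shallow, with a median of 1986 UMIs. PLVAP stood at 1712 CPM in 93.8% of its cells and CLDN5 at 956 CPM. The arterial connexins GJA5 and GJA4, gap junction proteins, were at 160 and 166 CPM, but their UMIs came from only 3.12% and 4.69% of the cells. HBM, a globin gene, was seen in 21.9% of these cells, and RNA of uterine secretions was higher here than in any other cluster, as given below.

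**Figure D3:**
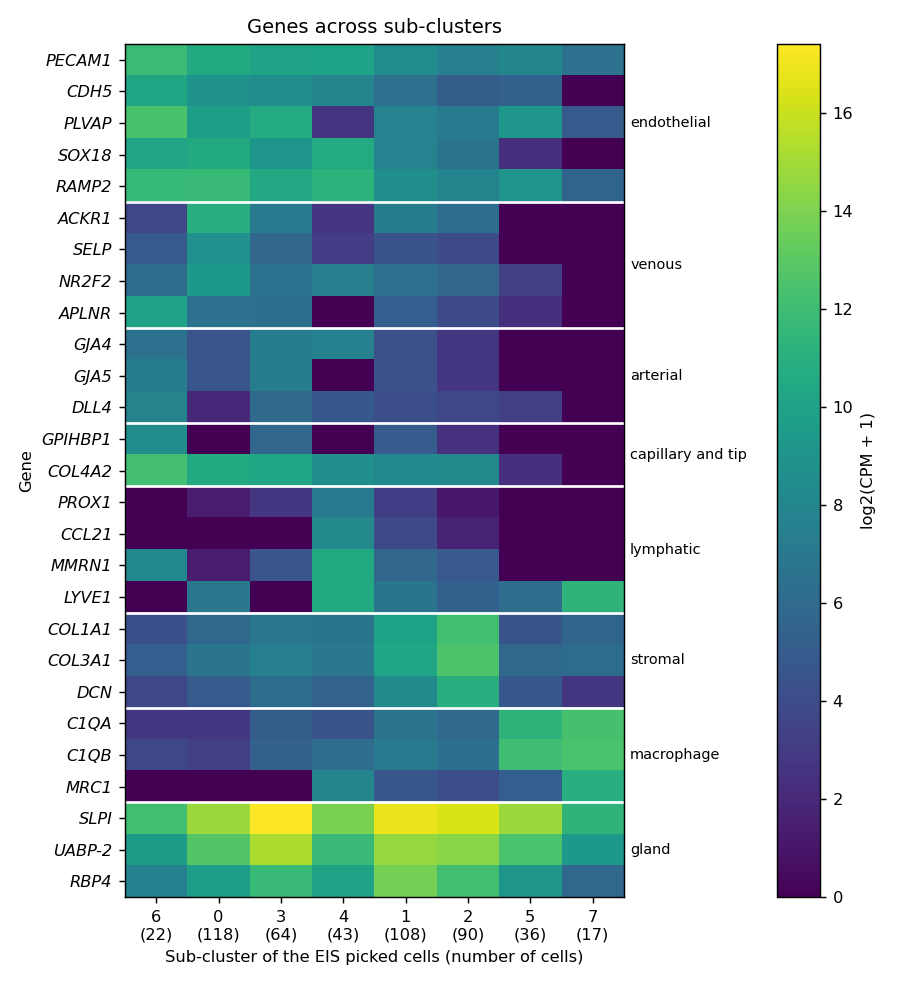
Level of marker genes, grouped by the list they belong to, in the 8 sub-clusters of picked EIS cells, as log2(CPM + 1). Cell numbers are in brackets. ACKR1, SELP and NR2F2 are highest in cluster 0, PLVAP and COL4A2 in cluster 6, PROX1, CCL21 and MMRN1 in cluster 4, collagens in cluster 2 and the complement genes C1QA and C1QB in clusters 5 and 7.

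The other clusters were led by RNA of other cells, with less endothelial RNA. The general endothelial list outside the rule summed to 1256 CPM in cluster 1 and 859 CPM in cluster 2. In clusters 5 and 7 it summed to 1025 and 707 CPM, beside 561 CPM in EIS macrophages. Those macrophages were picked with a rule gene sum under 2, so their lower value is a description. Cluster 2, of 90 cells, was led by collagen genes, with COL3A1 at 5925 CPM against 103 CPM in cluster 0, and the stromal list summed to 16560 CPM. Its rule genes summed to 642 CPM, with 53 of its 90 cells at a sum of 4 or 5, the bottom of the rule. Cluster 5, of 36 cells, was led by immune genes: the cytokine TNF stood at 1224 CPM and C1QB at 4352 CPM, PLVAP was seen in 91.7% of cells at 577 CPM, and SOX18 was at 4.44 CPM. Cluster 7, of 17 cells, had MRC1, the macrophage mannose receptor, at 2015 CPM and C1QB at 5642 CPM in all 17 cells, with CDH5 and SOX18 at 0. EGFL7 was nonetheless seen in all 17 of these cells, at 975 CPM, and PECAM1 in 76.5%, at 87.6 CPM, so that cells with macrophage genes passed the rule on these genes. Cluster 1, of 108 cells, was led by S100A2 and by gland genes such as RBP4, a retinol carrier, at 14070 CPM; its CDH5 was at 89.0 CPM against 497 CPM in cluster 0.

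RNA of uterine gland secretions was found throughout the picked EIS cells. SLPI, a protease inhibitor, stood at 64340 CPM in them against 163200 CPM in the other EIS cells and 48310 CPM in EIS ciliated cells. In EL, picked cells had 144 CPM and other cells 292 CPM of SLPI. The secretion list of 6 genes (SLPI, ACP5, UABP-2, SPP1, TIMP2 and RBP4) ranged from 8246 CPM in cluster 6 to 273500 CPM in cluster 3. In EL the list went the other way from SLPI, at 2543 CPM in picked and 649 CPM in other cells. Most of this was ACP5, at 1897 against 43.0 CPM. Of its 420 UMIs in picked EL cells, 410 came from cells with many UMIs of an epithelial, stromal, mural or macrophage list. RNAs of the list also stood high in collagen and macrophage cells of EIS, at 184400 and 174700 CPM, and the part of free RNA in them was not tested. A high share of such RNA lowers the CPM of every other gene in a cluster.

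**Figure D4:**
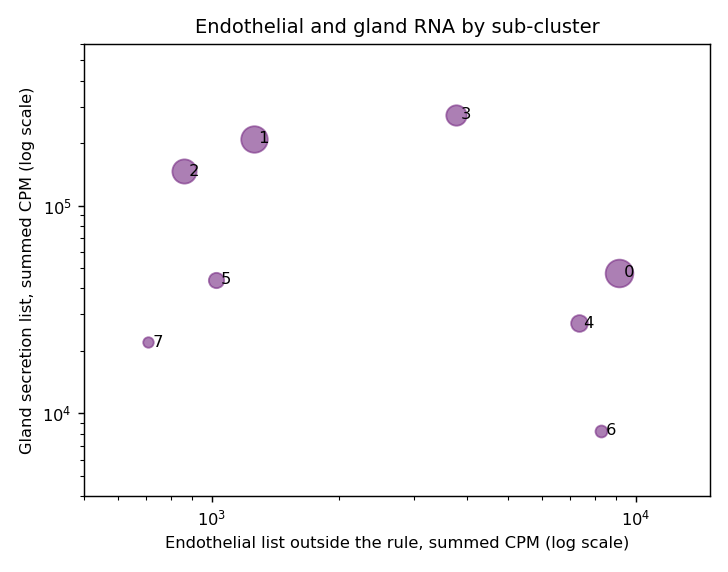
Summed level of the gland secretion list against that of the endothelial list outside the rule, both in CPM on log scales, for the 8 sub-clusters of picked EIS cells; point area follows the number of cells. Clusters 0, 4 and 6 combine high endothelial RNA (9130, 7330 and 8264 CPM) with secretion RNA of 47460, 27240 and 8246 CPM, while cluster 3 reaches 273500 CPM.

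The picked cells were next divided by lymphatic genes and by genes of other classes. Lymphatic-gene cells had at least 2 UMIs from at least 2 of the lymphatic genes PROX1, PDPN, CCL21 and MMRN1; FLT4, RELN and TBX1 were found under no symbol. They were 54 of 498 picked EIS cells (10.8%, 8.25 to 13.9) and 17 of 43 picked EL cells (39.5%, 24.98 to 55.6). As a share of all kept cells they were 0.623% in EIS and 0.158% in EL, a ratio of 3.96 (2.26 to 7.28). Among the rest, 219 EIS and 11 EL cells had 10 or more UMIs over an epithelial, stromal, mural or macrophage list; in EL 10 of the 11 had macrophage genes, and in EIS stromal genes were the most frequent, in 160 of all picked cells. The remaining cells numbered 225 in EIS and 15 in EL, or 2.60% and 0.139% of kept cells, a ratio of 18.7 (11.1 to 33.9). The divisions were made unlike, since cells with other-class UMIs stayed among the lymphatic-gene cells and were taken out of the remaining cells, and whether the shares differ between sows could not be tested.

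The 54 EIS lymphatic-gene cells included 40 of the 43 cells of cluster 4, which was lymphatic-like with 6 of 7 lymphatic genes higher, where 5.42% of all genes were. The others were 8 cells of cluster 1 and 6 cells of cluster 2, both low in endothelial RNA. In cluster 4, MMRN1 stood at 1522 CPM, LYVE1, the hyaluronan receptor of lymphatic vessels, at 1541 CPM, and PROX1, which sets lymphatic identity, at 150 CPM. FABP5 was at 5897 CPM and PLAT at 1637 CPM. PLVAP was at 5.37 CPM and FLT1 at 0, while in cluster 0 they were at 882 and 243 CPM. LYVE1 also stood at 2500 CPM in the macrophage-gene cluster 7 and did not separate the lymphatic cells alone.

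EL and EIS lymphatic-gene cells were compared over 61548 and 477162 UMIs. Since these cells were defined by PROX1, PDPN, CCL21 and MMRN1, the levels of those 4 genes are a description. PROX1 stood at 585 CPM (410 to 810) in EL and 124 CPM (94.1 to 160) in EIS, CCL21, the chemokine that draws dendritic and T cells into lymphatics, at 1186 and 237 CPM, and MMRN1 at 3672 and 1224 CPM. PDPN, a membrane glycoprotein of lymphatics, was at 666 and 465 CPM, a ratio of 1.43 (1.00 to 2.01). Of 9 measured genes of the general endothelial list outside the rule, 4 were at least 2-fold higher in EL, 3 with the interval outside 1, and none was lower (median log2 ratio 0.75, beside 0.04 over all genes tested). Over all genes tested, 12.4% were at least 2-fold higher, and 7.39% with the interval outside 1. The list was not counted again with TMM scaling or without the EIS cells with other-class UMIs. SOX18 of that list was at 1121 CPM in EL against 1264 CPM in EIS (ratio 0.887, 0.681 to 1.14). The lymphatic gene LYVE1 was at 1154 and 1239 CPM (0.931, 0.718 to 1.19), and FABP5, from the capillary list, at 4809 and 4818 CPM (0.998, 0.881 to 1.13). The general list's higher genes included the caveolar CAVIN2, which was at 2518 and 872 CPM (2.89, 2.39 to 3.48) and the transcription cofactor LMO2 at 1966 and 761 CPM (2.58, 2.09 to 3.18).

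Of 4170 genes with 20 or more UMIs over both sums, 517 (12.4%) were at least 2-fold higher and 801 (19.2%) at least 2-fold lower in EL; with TMM scaling, which shifts the log2 ratios by 0.41, the counts were 220 and 1126. With the interval of the ratio also outside 1, the counts were 308 (7.39%) and 276 (6.62%). TNFSF10, the death ligand TRAIL, had 1511 CPM in EL and 182 CPM in EIS (8.29, 6.12 to 11.2), though it was lower in the other EL cells than in the other EIS cells, 13.2 against 62.4 CPM. SMAD1, which carries BMP signals, was at 877 and 155 CPM (5.66, 3.91 to 8.14), and its level in the other cells was 44.3 and 17.2 CPM. GJA4 was at 894 CPM in EL, in 70.6% of the cells, and 90.1 CPM in EIS, in 9.26% (ratio 9.92, 6.53 to 15.1). C2orf40, which had the largest ratio (11.6, 6.75 to 20.4), rested on 11.8% of the EL cells and 9.26% of the EIS cells.

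The choice of EIS cells moved these ratios. Cluster 4 included 3 cells outside the lymphatic-gene definition, and over cluster 4 as a whole GJA4 was at 196 CPM and C2orf40 at 252 CPM, against 90.1 and 50.3 CPM in the lymphatic-gene cells. Of the 54 EIS lymphatic-gene cells 25 had an other-class UMI sum of 10 or more, against 0 of the 17 EL cells. Without those 25, the log2 ratio of GJA4 went from 3.31 to 1.95, that of PROX1 from 2.24 to 1.21 and that of C2orf40 from 3.54 to 2.30. That of SMAD1 went from 2.50 to 1.73 and that of TNFSF10 from 3.05 to 2.38, GPCPD1 and AP1AR moved by over 1.5 times as well, and CCL21 went from 2.32 to 2.29.

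**Figure D5:**
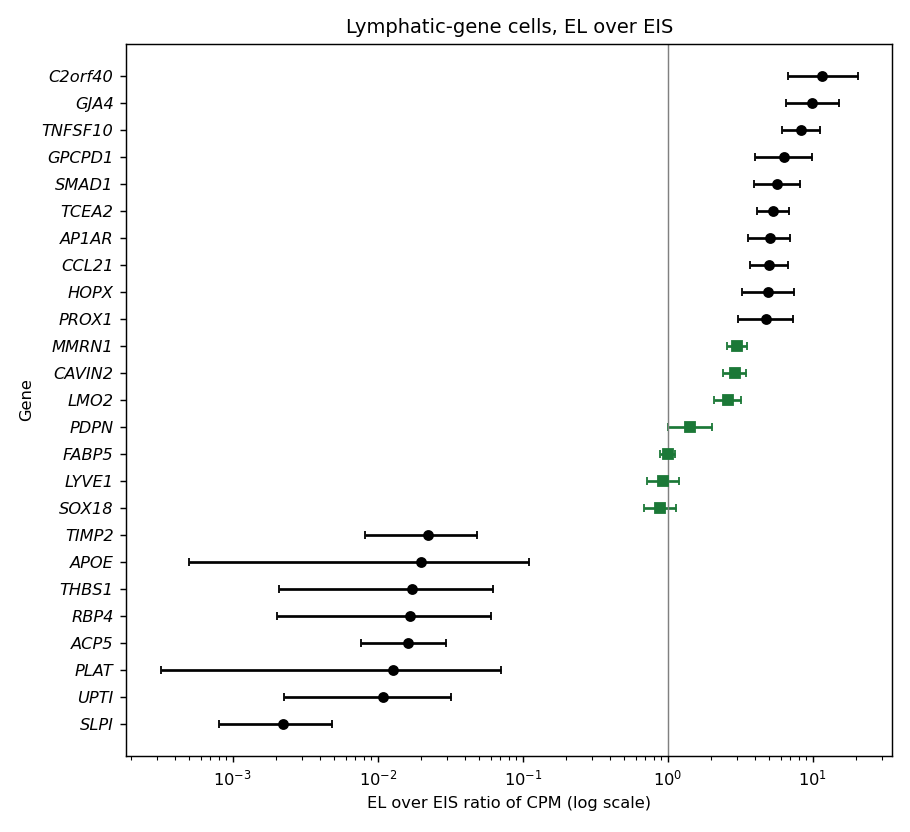
Ratio of EL over EIS level in lymphatic-gene cells, on a log scale, with exact conditional 95% intervals; circles are named genes with at least 1 EL UMI and squares are 7 endothelial genes added after their values were seen. SOX18, LYVE1 and FABP5 lie near 1, and PDPN, one of the genes that defined the cells, lies above them. The 10 named genes that were higher in EL lie between 4.73 and 11.6, and gland RNAs lie far lower.

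PLAT was the gene of the vessel wall that stood lowest in EL lymphatic-gene cells, with 1 UMI (16.2 CPM, 0.411 to 90.5) against 1283 CPM in EIS, seen in 5.88% and 72.2% of cells; the ratio of EIS over EL was 78.9 (14.1 to 3123). PLAT was also lower in the other EL cells, at 0.748 against 29.9 CPM. THBS1, which restrains vessel growth, was at 32.5 CPM in EL against 1897 CPM in EIS, and in the other cells at 4.18 and 415 CPM. The remaining genes at the low end were mostly gland RNAs, led by SLPI at 97.5 and 44230 CPM, and these were as far apart in the other cells of the libraries, at 292 and 163200 CPM. UABP-2, a uteroferrin-associated protein of the glands, had no UMI in EL and 10300 CPM in EIS, at least 211-fold lower in EL against a floor of 3 UMIs over the group.

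Genes of cell division were lower in EL lymphatic-gene cells. Of 8 measured genes of the list, 7 were at least 2-fold lower, 6 with the interval outside 1. Over all genes tested, 19.2% were at least 2-fold lower, and 6.62% with the interval outside 1. The median log2 ratio of the list was -1.22 beside 0.04 over all genes tested. CENPF and UBE2C, genes of mitosis, had 0 UMIs in EL against 161 and 187 CPM in EIS, so EL was at least 3.31-fold and 3.83-fold lower. These UMIs came from 16.7% of the EIS cells for CENPF and 20.4% for UBE2C. The intervals count UMIs and not cells, so they do not allow for the few cells behind them. The list was not counted again without the 25 EIS cells with other-class UMIs. HMGB2, a chromatin protein of dividing cells, was at 146 CPM in EL against 417 CPM in EIS (0.351, 0.158 to 0.679). In the other cells of the libraries CENPF and HMGB2 were not lower in EL, at 19.5 against 11.98 CPM and 160 against 137 CPM. Within the EIS picked cells, UBE2C stood at 223 CPM in cluster 4, 231 CPM in cluster 5 and 185 CPM in cluster 6, and at 0 in the venous-like cluster 0. The list went the other way in the remaining cells, where 4 of 7 measured genes were higher in EL, 2 with the interval outside 1, and 1 was lower. Its median log2 ratio there was 1.25, beside 0 over all genes tested. Of all genes tested there, 17.4% were at least 2-fold higher, and 5.84% with the interval outside 1.

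Over all picked cells, 10683 genes could be compared between the libraries, of which 1265 (11.8%) were at least 2-fold higher and 1865 (17.5%) at least 2-fold lower in EL, or 712 and 2478 with TMM scaling. With the interval also outside 1 the counts were 826 (7.73%) and 603 (5.64%). These sums compare mixtures, since the picked EL cells held more lymphatic-gene and macrophage-gene cells and fewer of the other kinds. Of 7 measured lymphatic genes 5 were higher in EL and 1 lower, with the median log2 ratio at 1.28. Of 8 venous genes 1 was higher and 6 lower (median -1.86), and of 9 leukocyte adhesion genes none was higher and 8 were lower (median -1.64), beside a median of 0.09 over all genes. ACKR1 was at 36.1 CPM in EL against 495 CPM in EIS, and SELP had 1 EL UMI against 110 CPM in EIS. Without the lymphatic-gene cells the lymphatic list turned, from a log2 ratio of its summed level of 1.48 to -3.91. Genes of this list defined the cells removed from both libraries, so the turn describes what was left and is no result. Only 3 UMIs of the list were left in EL, all in the remaining cells. The macrophage-gene cluster 7 of EIS held 428 UMIs of the list, with LYVE1 the only gene of the list counted as higher there.

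The largest ratios of EL over EIS picked cells followed genes of other cells in several cases. CYP26A1, which breaks down retinoic acid, had a ratio of 68.7 (46.1 to 106), at 637 against 9.27 CPM, and was at 1336 against 8.15 CPM in the other cells. C3, a complement protein, was at 578 against 77.5 CPM in the picked cells and at 918 CPM in EIS cluster 5, which had immune genes. C3, PSAT1, CPSF6 and S100A4 each stood below the EIS level when the rule was made stricter or cells with other-class UMIs were left out. CCL21 (8.89, 6.55 to 11.99) and PROX1 (8.22, 5.31 to 12.6) were the lymphatic genes among the 10 largest ratios. At the low end COL3A1 and COL1A1 had 0 EL UMIs against 1835 and 1434 CPM in EIS, at least 135-fold and 106-fold lower; the stromal list summed to 58.7 CPM in picked EL cells and 5134 CPM in picked EIS cells.

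The 15 remaining EL cells gave 38933 UMIs, too few for more than the highest genes. Of the 225 remaining EIS cells, 109 were of the venous-like cluster 0, 64 of cluster 3, 29 of cluster 1, 20 of cluster 6 and 3 of cluster 4. The EL cells were not clustered, so these sums compare mixtures, and the part of this makeup in the ratios was not tested. Of 6885 genes, 1199 (17.4%) were at least 2-fold higher and 1776 (25.8%) at least 2-fold lower in EL than in the 225 remaining EIS cells, but only 402 (5.84%) and 178 (2.59%) with the interval outside 1. TMM scaling would lower the log2 ratios by 0.61 here, and the genes were not counted again with it. Of 8 venous genes 7 were lower, 6 with the interval outside 1: ACKR1 was at 206 CPM in EL against 1307 CPM in EIS (0.157, 0.0677 to 0.311) and NR2F2 at 25.7 and 447 CPM (0.0575, 0.00145 to 0.322). Of 5 arterial genes 4 were higher, all with the interval outside 1; GJA5 was at 411 and 45.1 CPM (9.12, 4.82 to 16.4), from 5 of the 15 EL cells and 2.22% of the EIS cells. PLVAP was at 231 and 1634 CPM (0.141, 0.0646 to 0.269) and CLDN5 at 2954 and 541 CPM (5.46, 4.43 to 6.69). PECAM1 was at 1490 and 1621 CPM (0.919, 0.695 to 1.19), EGFL7 at 1592 and 1399 CPM and TIE1 at 180 and 213 CPM; PLVAP, CLDN5, PECAM1 and EGFL7 picked the cells, so their levels are a description. On the general list outside the rule 2 of 12 measured genes were higher in EL and 3 lower. COL4A2 was at 128 CPM in EL against 1881 CPM in EIS (0.0683, 0.0221 to 0.160). RNA common in the rest of the EL library was present too: the largest ratio was that of AQP3, a water and glycerol channel, at 822 and 7.84 CPM, which stood at 1476 CPM in the other EL cells, and its part in the other ratios was not tested.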

How the data were processed

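The authors deposited UMI counts as whole numbers, not normalized, for each gene and barcode of 2 libraries. The submitters' processing notes list Cell Ranger 2.1.1 and the header inside each matrix cellranger 6.1.0; neither a build nor an annotation is given in the sources used here. Since 16128 of 26881 features have no gene symbol, some genes could not be looked up. The cells, gene lists and comparisons were chosen with earlier results of these data known. The remaining cells, the interval rule and the comparisons within lymphatic-gene and remaining cells, and list counts without rule genes, were added after seeing the data.

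Rows sharing a symbol were summed. UMIs were summed per set of cells and scaled to CPM; levels have exact Poisson, shares exact Clopper-Pearson and ratios exact conditional intervals at 95%. A gene counted as higher or lower at a ratio of 2 or 0.5, with at least 20 UMIs over both sums; against 0 UMIs the ratio is a bound at 3 UMIs per group. Named genes were the rule genes, the 20 largest and 10 smallest ratios in picked EIS cells, the 10 largest and 10 smallest between libraries (with a symbol, 100 CPM and 30 UMIs or more in the higher set), the 8 largest per sub-cluster (20 UMIs) and up to 6 per gene list at 50 CPM or more in picked EIS cells. Other genes, such as GJA5, and the genes of the added comparisons were chosen after their values were seen. Comparison cells (ciliated, collagen, macrophage) were picked by UMI sums of their own genes. The collagen and macrophage cells also had to have a rule gene sum under 2 and no UMI of SNTN. Picked EIS cells were clustered with scanpy 1.11.5 and leidenalg 0.10.2 (2000 variable genes, 20 components, 15 neighbours, resolution 0.5). Doublets were left in: Scrublet's automatic threshold marked 0 barcodes in either library and so had not worked. An alternative removed the top scores (0.8% per 1000 barcodes, 933 EL and 601 EIS, 30 of them picked EIS cells). Software was Python 3.11.15 with numpy 2.4.6, scipy 1.17.1, matplotlib 3.10.9 and pandas 2.3.3, and the ratios were tested on simulated data. Alternatives were other rule limits, cell filters, scalings and gene minimums, and removal of 10% of each sum as free RNA.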

Additional observations from a re-analysis of the deposited data

How the results depend on the processing

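With 1 library per group, no replicate could be left out. No paired analysis was possible because each group has 1 sample. The picked share was 7.76% in EIS and 0.537% in EL at a rule sum of 3, 3.12% and 0.222% at a sum of 8, 4.60% and 0.259% with 3 rule genes seen, 9.53% in EIS with 1000 genes, and 2.93% in EIS without other-class cells. Lymphatic-gene cells were 58.3% of EL and 14.8% of EIS picked cells at a sum of 8, and 57.1% of EL with 3 rule genes. Genes higher in picked EIS cells numbered 1390 (2652 lower, beside 2087 and 1967) both with TMM scaling and without genes over 1%, whose scale factors nearly coincide. Genes lower there numbered 3034 at a sum of 8, 3735 without other-class cells and 1169 with the interval outside 1. With no minimum the counts were 3402 and 5984 there and 2607 and 6735 between libraries. Genes higher in EL picked cells were 712 with TMM scaling, 712 (1102 lower) at 50 UMIs and 826 (603 lower) with the interval rule. In lymphatic-gene cells they were 220 with TMM scaling, 308 (276 lower) with the interval rule and 197 (275 lower) without other-class cells, and in remaining cells 402 (178 lower) with the interval rule. Fewer genes or cells enter the stricter settings; no other cause was tested. The log2 ratio of EL over EIS picked cells turned for PSAT1 (-0.68) and C3 (-2.33) at a sum of 8, for PSAT1 (-1.13), C3 (-0.063) and CPSF6 (-0.60) with 3 rule genes, for S100A4 (-1.52) and CPSF6 (-0.54) without other-class cells, and for the lymphatic list (-3.91) without lymphatic-gene cells. Genes of the lymphatic list defined the cells removed from both libraries, so its turn is no result. At resolution 1 the 8 sub-clusters became 10.

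Depth limits the EL side: 43 cells gave 221396 UMIs, so the floor of 3 UMIs used for bounds stood at 13.6 CPM, and at 77.1 CPM in the 15 remaining cells.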
